A study of Mus musculus with 12 samples.

Results

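The 37 genes described here are the enzymes of glycolysis and a group of genes known to respond to low oxygen, taken by symbol from the deposited gene table. All 37 were among its 25861 genes, and all 37 were among the 17025 genes with enough reads to be tested. By role they were 16 glycolytic enzymes, 4 glucose or lactate transporters, 3 regulatory kinases, the transcription factor Hif1a and 13 hypoxia targets. The samples were organoids, small clusters of cells taken fresh from primary tumours of MMTV-Neu mice, a line whose Neu (Erbb2) oncogene is expressed from the viral MMTV promoter. All 12 libraries came from organoids that received lentivirus and puromycin, were fed medium with 2.5 nM FGF2, and then spent 5 days in collagen I. The 4 shControl libraries (labelled wild type) carried a non-targeting short hairpin RNA, and the 4 sh1Cldn7 and 4 sh2Cldn7 libraries carried hairpin 1 or hairpin 2 against Cldn7, the gene of the tight junction protein claudin 7. The study asked how loss of Cldn7 affects invasion, and the titles number the libraries of each group from 1 to 4. Nothing in the labels ties these numbers to separate animals or cultures, and p-values therefore reflect only how far these particular libraries spread, in part perhaps for technical reasons.

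Glycolysis splits glucose into pyruvate in the cytosol, and lactate dehydrogenase turns pyruvate into lactate, which leaves the cell through monocarboxylate transporters. When oxygen is scarce, prolyl hydroxylases of the Egln family no longer mark HIF-1 alpha for destruction, and the stabilised factor binds a short core sequence near many of the enzyme and transporter genes and raises their transcription. Tumour cells often run glycolysis at a high rate even with oxygen present, and Gapdh, an enzyme of the pathway, is widely used as a reference gene for RNA measurements.

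Libraries of replicates 1 and 2 held 34988358 to 44645514 counts and those of replicates 3 and 4 held 68581024 to 76329473. Levels are given as CPM, counts scaled to a common library total after edgeR's TMM adjustment, and differences as log2. Cldn7 itself was lower by 2.18 on the log2 scale in the mean of the 8 hairpin libraries than in the 4 control libraries (exact two-sided permutation test, p = 0.00202). Summed markers of mammary epithelium (16 genes) lay between 9408 and 12101 CPM in every library. The single genes did not stay level, since an edgeR F-test of the replicate number called 16 of 16, against 76.3% of all genes. For other cell types the sums also differed between libraries. The red cell sum (7 genes, up to 5 of them at 0 in a library) was 311 to 826 CPM in replicates 1 and 2 and 1.70 to 2.68 CPM in replicates 3 and 4, and the lymphocyte sum (12 genes, up to 11 at 0) was 3.78 to 9.56 CPM against 0.0461 to 0.755 CPM. In such bulk samples, fewer cells of a type and less RNA per cell cannot be told apart. The part of sequence shared with other genes, described below for Gapdh, in these marker sums was not tested.

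The largest difference among the members lay between replicate numbers and not between hairpins, and it concerned Gapdh. Gapdh, which makes glyceraldehyde-3-phosphate dehydrogenase, was at 359, 340.5, 9.0 and 6.34 CPM in shControl replicates 1 to 4. It was at 367, 322, 7.35 and 5.51 CPM with sh1Cldn7 and at 297, 328, 6.05 and 5.33 CPM with sh2Cldn7. All 6 libraries of replicates 3 and 4 were below all 6 of replicates 1 and 2 in every group, and the mean of the first 6 was 50.9 times that of the last 6. The difference was already in the raw counts, which ran from 10890 to 14758 in the shallower libraries of replicates 1 and 2 and from 397 to 586 in the deeper ones. On the log2 scale Gapdh was lower by 5.69 in replicates 3 and 4, a value given without a test because it was known from earlier results.

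**Figure D1:**
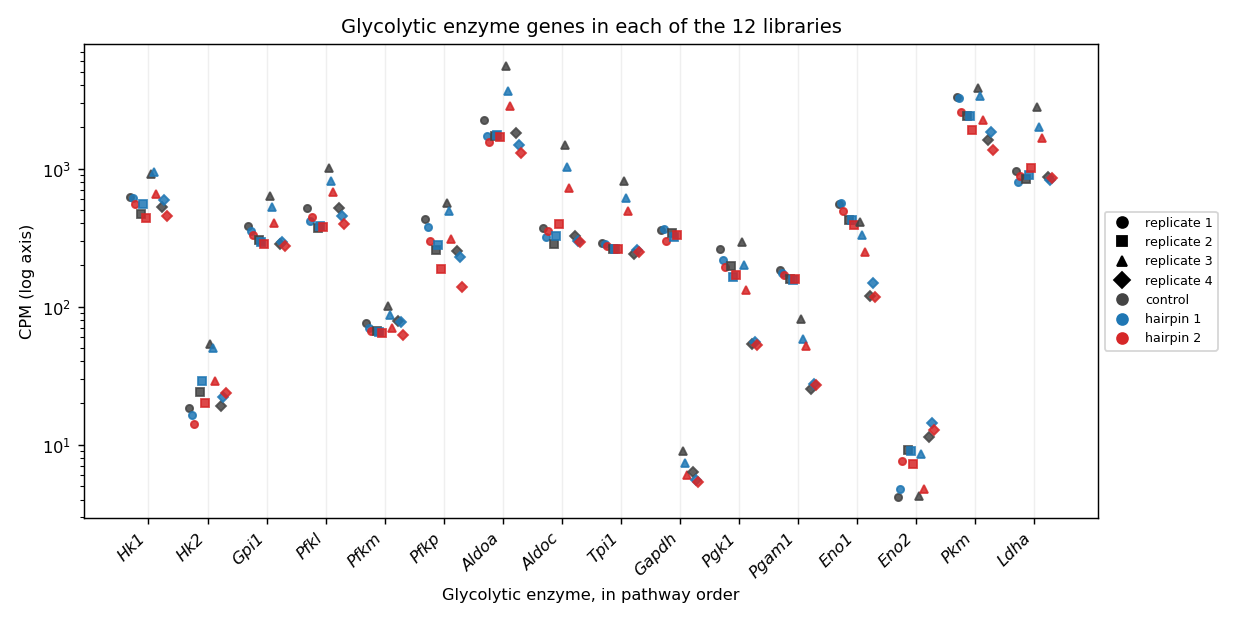
CPM on a log axis for the 16 glycolytic enzyme genes in pathway order, with 1 point per library, the shape giving the replicate number and the colour the group. Gapdh falls into a high cluster (replicates 1 and 2, 297 to 367 CPM) and a low one (replicates 3 and 4, 5.33 to 9.0 CPM), and for many other enzymes the triangles of replicate 3 are the highest points.

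Gapdh had the largest such difference of the 16 enzymes. Pgam1, the phosphoglycerate mutase acting later in the pathway, came next, at 183, 157, 81.1 and 25.4 CPM in shControl, 175, 155, 57.9 and 27.4 with sh1Cldn7, and 170.0, 158, 52.2 and 26.9 with sh2Cldn7. Its replicates 3 and 4 were also below replicates 1 and 2 without overlap, by 2.02 on the log2 scale. Eno1, an enolase, was at 556, 422, 407 and 120.0 CPM in shControl, 565, 424, 332 and 148 with sh1Cldn7, and 493, 387, 249.8 and 117 with sh2Cldn7. Here replicate 3 of the control overlapped the first libraries, and the difference of the means was -1.20. Pgk1, phosphoglycerate kinase, differed by -0.92 with overlap. Tpi1, which feeds Gapdh with its substrate, had a mean difference of 0.55, and Ldha, lactate dehydrogenase A, one of 0.59, both also with overlap. Tpi1 ran from 239 to 814 CPM in replicates 3 and 4 and from 259 to 288 CPM in replicates 1 and 2. Ldha ran from 831 to 2792 CPM against 792 to 1006 CPM, and its high values were those of replicate 3.

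Several hypoxia targets and a lactate exporter lay on the other side. Slc16a3, which encodes the monocarboxylate transporter MCT4, was at 2.33, 0.843, 19.0 and 3.11 CPM in shControl, 3.00, 2.09, 9.69 and 3.61 with sh1Cldn7, and 1.63, 1.80, 18.5 and 8.11 with sh2Cldn7. Every library of replicates 3 and 4 exceeded every library of replicates 1 and 2, by 2.16 on the log2 scale. P4ha1, a collagen prolyl hydroxylase subunit, was at 44.9, 37.1, 83.5 and 64.6 CPM in shControl, 39.2, 36.6, 57.6 and 81.2 with sh1Cldn7, and 36.5, 35.2, 69.0 and 98.5 with sh2Cldn7, a difference of 0.98. Vegfa, the vascular growth factor, was at 75.5, 74.7, 143 and 106 CPM in shControl, 73.4, 65.4, 121 and 111 with sh1Cldn7, and 79.5, 60.4, 122 and 94.7 with sh2Cldn7, a difference of 0.70. For neither gene did replicates 3 and 4 overlap replicates 1 and 2. Ankrd37, a HIF target that codes for an ankyrin repeat protein, was at 1.18, 1.15, 6.20 and 0.959 CPM in shControl, 0.713, 0.716, 5.26 and 0.640 with sh1Cldn7, and 1.01, 1.15, 4.30 and 0.832 with sh2Cldn7. Its mean difference of 1.07 came from replicate 3, since replicate 4 was below 1 CPM in all 3 groups.

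Of the 37 members, 3 (Slc16a3, Vegfa and P4ha1) were higher in all 6 libraries of replicates 3 and 4, as were 3.88% of all genes tested. In 2 (Gapdh and Pgam1) all 6 were lower, as in 14.3% of all genes, and 32 overlapped. A joint edgeR quasi-likelihood F-test of the replicate number called 34 of 37 members at an adjusted p under 0.05, 24 of them higher and 10 lower in replicates 3 and 4. It also called 76.3% of all genes, 41.2% higher and 35.1% lower, against 91.9% of the members. Most genes thus passed this test, and whether the members' share is particular to them was not tested. The members' median difference was 0.30 and that of all genes 0.04. Medians by role were 0.27 for the 16 enzymes and 0.46 for the 13 hypoxia targets. Slc16a1 (the transporter MCT1), Pfkfb4 (a kinase and phosphatase that sets fructose-2,6-bisphosphate) and Hif1a were the 3 not called.

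Hif1a, the oxygen-regulated subunit of HIF-1, is controlled mainly at the protein level, which these data do not measure. Its RNA was at 111, 115, 146 and 119.8 CPM in shControl, 93.7, 109, 131 and 142 with sh1Cldn7, and 98.7, 113, 94.1 and 156 with sh2Cldn7. The groups overlapped throughout.

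Sequence shared with other genes moved with the step of Gapdh. Mouse Gapdh has many processed pseudogenes, and a read that matches several genes may be dropped, split or assigned to a single one, depending on the aligner and counter, neither given in the sources used here. Of all 50-base words in the main Gapdh mRNA (the transcript with the longest coding sequence in GENCODE M21), 90.4% also occurred in transcripts of other genes. Over the words of all Gapdh transcripts the share was 25.1%, and 223 other genes held such words, 213 of them annotated pseudogenes. The 50-base coding stretches below are shown because they mark the extremes: the Gapdh stretch found in the most other genes (84, in exon 4, chr6:125162898-125162947, minus strand), a Gapdh stretch found in none (exon 1, chr6:125166404-125166453, minus strand), the most shared stretch of Pgam1 (in 3 other genes, exon 3, chr19:41916679-41916728, plus strand) and that of Aldoa (in 1 other gene, exon 6, chr7:126796701-126796750, minus strand). The unshared Gapdh stretch lies upstream of the RefSeq start site, whose preceding 250 bases are chr6:125165774-125166023. It belongs to a GENCODE transcript that starts further upstream, taken here for its longest coding sequence. How much of the Gapdh RNA holds this stretch was not tested. Coordinates are GRCm38 (mm10), and the letters are those of the GENCODE transcripts, 5′ to 3′.
Gapdh, most shared: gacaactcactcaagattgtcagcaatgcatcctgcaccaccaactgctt
Gapdh, not shared: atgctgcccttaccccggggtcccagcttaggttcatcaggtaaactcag
Pgam1, most shared: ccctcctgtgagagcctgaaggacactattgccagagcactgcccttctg
Aldoa, most shared: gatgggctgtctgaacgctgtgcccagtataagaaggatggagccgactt

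Among the members, shared sequence above 50% was found in 4 genes, Gapdh, Eno1 (72.2%), Pgk1 (68.0%) and Bnip3 (62.4%). Their median step from replicates 1 and 2 to replicates 3 and 4 was -1.06. Bnip3, a mitophagy receptor gene, went against the other members of that group with a step of 0.71. Pgam1 followed at 41.5% and Pkm, the pyruvate kinase gene, at 34.4% with a step of -0.23. These shares depend on the measure. Over the words of all transcripts of a gene they were 25.1% for Gapdh, 26.0% for Eno1, 53.9% for Pgk1 and 47.2% for Bnip3. Matches on either strand counted, also those with overlapping neighbours such as Gm45507, antisense to Bnip3. The 19 members with no shared word in the main mRNA had a median step of 0.46. Over all 14711 genes that could be matched to a transcript, the median step was 0.10 in the 7859 genes with no shared word and -1.12 in the 718 genes above 50%, and 51.9% of the latter were lower by more than 1 against 7.43% of the former. Among other reference genes, the step was -5.30 for Ppia (54.3% shared), -0.18 for Rplp0 (41.8%), 0.02 for Tbp (none shared) and 0.12 for B2m (none shared). The part of shared sequence in the difference of Gapdh was not tested, since reads were not analysed here.

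**Figure D2:**
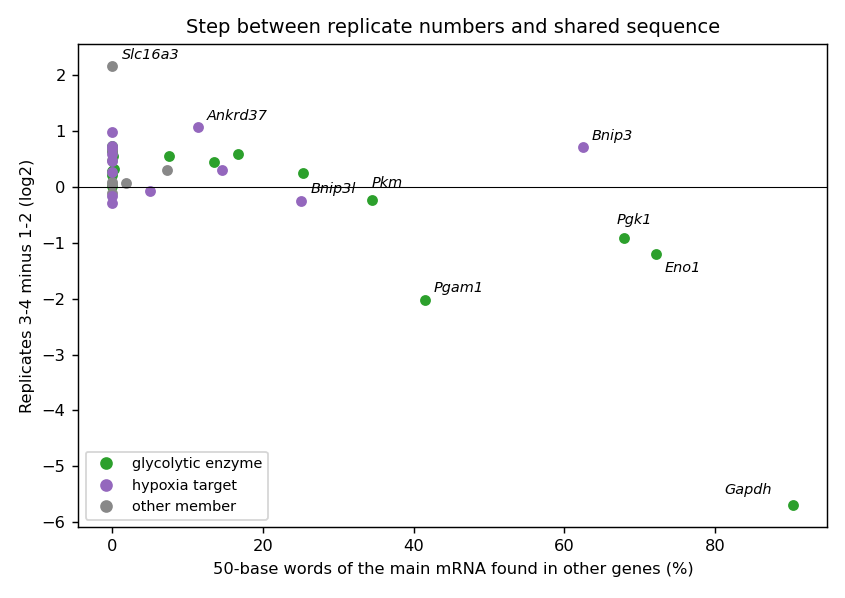
Log2 difference between replicates 3-4 and 1-2 (vertical) against the percentage of 50-base words of the main mRNA found in other genes (horizontal), with 1 point per member and the colour giving the role. Gapdh sits at 90.4% and -5.69, Pgam1, Eno1 and Pgk1 lie between -2.02 and -0.92, and Bnip3 lies above zero at 62.4%.

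Between isozymes, levels were compared as CPM per kilobase of exon, and the leading form was the same in every group. Hk1 made up 94.1% ± 1.7 (SD, n = 4) of hexokinase RNA (Hk1 plus Hk2) in shControl, 94.3% ± 1.6 with sh1Cldn7 and 94.4% ± 1.5 with sh2Cldn7. Hk2, the form most often tied to tumours, held the rest. Among the phosphofructokinases Pfkl led with 62.3% ± 4.5 in shControl, 60.8% ± 4.3 with sh1Cldn7 and 65.2% ± 4.0 with sh2Cldn7 (SD, n = 4 each). The share of Pfkp was 19.7% ± 3.6, 20.7% ± 3.9 and 15.9% ± 3.6 in the same order, and these ranges overlapped. Aldoa held 79.8% to 87.2% of the aldolase pair, Eno1 88.9% to 99.1% of the enolase pair and Slc2a1, the glucose transporter GLUT1, 98.2% to 99.9% of the Slc2a1 and Slc2a3 pair over all 12 libraries. Only the lactate transporter pair varied widely, with Slc16a1 at 55.0% to 97.2%. The enolase shares include the replicate difference of Eno1.

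Against the control, members tended to be lower with hairpin 2, and less evenly so with hairpin 1. Of the 37 members, 29, 26, 32 and 20 were below the control with hairpin 2 in replicates 1 to 4. With hairpin 1 the counts were 24, 21, 31 and 13. Few members passed the test, and none did without the replicate number in the model. Same-numbered libraries of the 3 groups deviated together (correlations of 0.855 to 0.916), so hairpin values are from an edgeR quasi-likelihood fit that includes the replicate number as a block. Without the block, edgeR called 0 of 37 members in each of the 4 hairpin comparisons, with 0.00587% of all genes called in each. At an unadjusted p under 0.05 that fit had 0 members for both hairpins together, 0 for hairpin 1, 2 for hairpin 2 and 4 for hairpin 2 against hairpin 1, against 2.38%, 1.80%, 3.56% and 2.88% of all genes. DESeq2 without the block also called 0 members in all 4 comparisons, with 0.159% to 0.352% of all genes called.

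With the block, the mean of both hairpins against the control gave 1 called member of 37, Pfkp, where 1.79% of all genes were called, 0.84% higher and 0.946% lower. The log2 difference was negative for 28 of 37 members, with a median of -0.14 against -0.0024 over all genes. By role, 15 of 16 enzymes, 10 of 13 hypoxia targets, 1 of 4 transporters and 1 of 3 regulatory kinases were negative. Hairpin 1 alone called 0 of 37 members in edgeR (0.728% of all genes, 0.382% higher and 0.347% lower), with 5 (13.5%) at an unadjusted p under 0.05 against 12.8% of all genes, and 26 of 37 were negative with a median of -0.09 against -0.0019 over all genes. DESeq2 with the block also called 0 members for hairpin 1, against 3.57% of all genes. Hairpin 2 alone called 7 of 37 (5.76% of all genes), 6 lower (2.93% of all genes) and 1 higher (2.83%), and 29 were negative with a median of -0.24 against 0.0044 over all genes. These comparisons share the 4 control libraries. Counts of negative members are given without the share over all genes, and genes of the same libraries are not independent. The fibroblast marker sum (14 genes) was 2238, 2787, 874 and 6734 CPM in shControl replicates 1 to 4. It was 2228, 3209, 1029 and 8506 CPM with sh1Cldn7, and 3368, 3102, 2691 and 14753 CPM with sh2Cldn7. With hairpin 2, 13 of 14 markers had a positive difference and 4 were called higher. The 13 mitochondrially encoded genes were all negative with hairpin 2 (median -0.27), with 0 called by edgeR and 5 at an unadjusted p under 0.05, and their sum was 38471 to 49635 CPM in replicates 1 and 2 and 13922 to 26478 CPM in replicates 3 and 4. The part of either group in the members' differences was not tested.

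**Figure D3:**
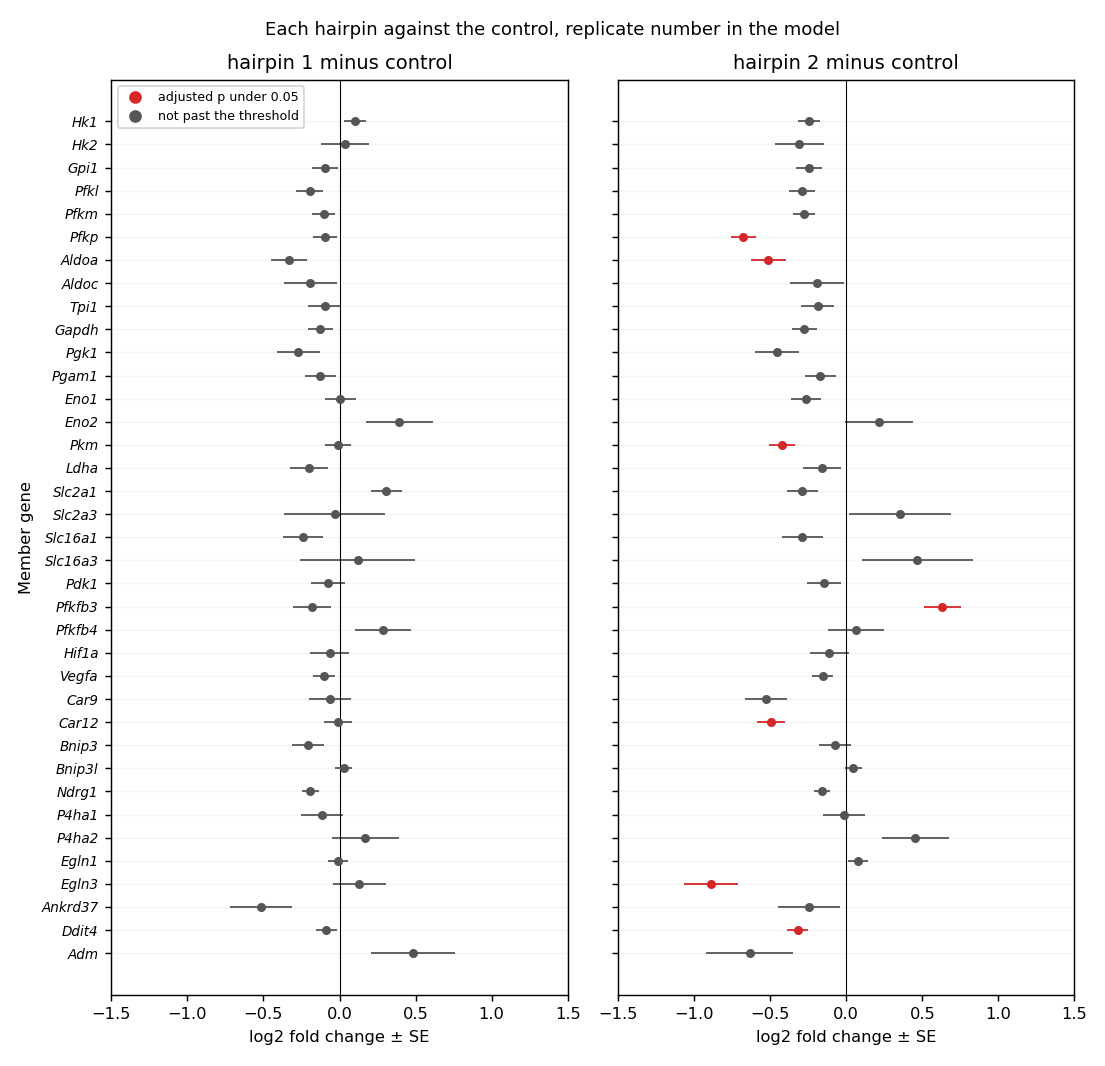
Log2 fold change with its standard error for each of the 37 members, hairpin 1 against control on the left and hairpin 2 against control on the right, both with the replicate number in the model. Red points passed an adjusted p of 0.05, none on the left and 7 on the right, of which Pfkfb3 alone is above zero.

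Among the enzymes, Pfkp, the platelet form of phosphofructokinase, which commits sugar to glycolysis, kept its call with hairpin 2 most often. It was at 431, 258, 559 and 252 CPM in shControl, 379, 279.9, 496 and 230.1 with sh1Cldn7, and 297, 188, 309.8 and 138 with sh2Cldn7. Hairpin 2 was below the control and below hairpin 1 at each of the 4 numbers, although the groups overlapped when numbers were ignored. With hairpin 2 it fell by 0.68 (SE 0.08, edgeR adjusted p = 0.0026), and against hairpin 1 by 0.58 (SE 0.08, edgeR adjusted p = 0.0055). Both calls held when any 1 of the 12 libraries was left out, with values of -0.75 to -0.62 for the first. Over both hairpins the difference was -0.39 (SE 0.07, edgeR adjusted p = 0.025). That call was lost without any of 8 libraries (shControl 1, 3 or 4, each sh1Cldn7 library, or sh2Cldn7 4), where edgeR's adjusted p was 0.0527 to 0.106.

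Aldoa, the main aldolase, was at 2248, 1732, 5572 and 1817 CPM in shControl, 1717, 1742, 3643 and 1492 with sh1Cldn7, and 1564, 1679.7, 2858 and 1288 with sh2Cldn7. Hairpin 2 was lowest at every number. It fell by 0.51 with hairpin 2 (SE 0.12, edgeR adjusted p = 0.033). The call was lost without any 1 library other than shControl 2 or sh2Cldn7 2, with edgeR adjusted p of 0.0528 to 0.105, and without replicate 3 of all groups the difference was -0.36.

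Pkm, whose product makes pyruvate, was at 3273, 2406, 3814 and 1611 CPM in shControl, 3245, 2387, 3351 and 1840.5 with sh1Cldn7, and 2583, 1915, 2239 and 1359 with sh2Cldn7. Hairpin 1 stayed near the control and hairpin 2 was lowest at all 4 numbers. Pkm fell by 0.42 with hairpin 2 (SE 0.09, edgeR adjusted p = 0.023) and by 0.41 against hairpin 1 (SE 0.09, edgeR adjusted p = 0.031). The first call was lost without shControl 1 or 3 or sh2Cldn7 1 or 4 (edgeR adjusted p of 0.0538 to 0.068), and the second without shControl 1, any sh1Cldn7 library, or sh2Cldn7 1 or 4 (0.0576 to 0.122).

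Hk1, the main hexokinase, was at 624, 472, 914 and 527 CPM in shControl, 612, 556, 941 and 589 with sh1Cldn7, and 551, 436, 657 and 456 with sh2Cldn7. It was called only between the hairpins, with hairpin 2 lower by 0.35 (SE 0.07, edgeR adjusted p = 0.029). Without any of 7 libraries (shControl 1, sh1Cldn7 2, 3 or 4, sh2Cldn7 1, 2 or 4) edgeR's adjusted p was 0.0503 to 0.119. Pfkm, the muscle form of phosphofructokinase, was lower than the control in 8 of 8 same-number pairs, as was Ndrg1, against 4.31% of all genes, yet neither was called. No member was higher in 8 of 8 pairs, against 3.72% of all genes. Ldha was at 966, 842, 2792 and 872 CPM in shControl, 792, 891, 2002 and 831 with sh1Cldn7, and 888, 1006, 1666 and 858 with sh2Cldn7, high in replicate 3 of every group, with a difference of -0.18 over both hairpins (SE 0.11, edgeR adjusted p = 0.44). For Gapdh that difference was -0.20 (SE 0.07, edgeR adjusted p = 0.17).

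Of the transporters, Slc2a1 set the hairpins apart. It was at 137, 115, 187 and 99.0 CPM in shControl, 189.9, 145, 167 and 146 with sh1Cldn7, and 109, 94.0, 145 and 88.9 with sh2Cldn7. Hairpin 1 was above the control at 3 of 4 numbers and hairpin 2 below it at all 4. Neither difference from the control was called (0.31 and -0.29), but hairpin 2 was lower than hairpin 1 by 0.60 (SE 0.10, edgeR adjusted p = 0.015). That call was lost without sh1Cldn7 1, 2 or 4 or sh2Cldn7 1 (edgeR adjusted p of 0.059 to 0.0666).

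Pfkfb3, the kinase that makes the phosphofructokinase activator fructose-2,6-bisphosphate, was the only member called higher. It was at 20.2, 35.7, 42.4 and 32.4 CPM in shControl, 16.4, 31.5, 35.7 and 32.0 with sh1Cldn7, and 27.3, 45.4, 89.4 and 49.4 with sh2Cldn7. Hairpin 2 was highest at every number. It rose by 0.63 with hairpin 2 (SE 0.12, edgeR adjusted p = 0.018) and by 0.81 against hairpin 1 (SE 0.12, edgeR adjusted p = 0.0083). The second call held without any 1 library (0.64 to 0.91), and the first was lost without shControl 3 or 4 (edgeR adjusted p of 0.0731 and 0.0552). Pdk1, which slows pyruvate entry to the mitochondria, and Pfkfb4 were not called.

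Among the 13 hypoxia targets, 3 fell with hairpin 2. Egln3, the prolyl hydroxylase PHD3, was at 259, 106, 828 and 119 CPM in shControl, 238, 164, 688 and 152 with sh1Cldn7, and 152, 91.3, 283 and 59.7 with sh2Cldn7. Replicate 3 was far above the others in each group, and hairpin 2 was lowest at each number. Egln3 fell by 0.89 with hairpin 2 (SE 0.18, edgeR adjusted p = 0.021) and by 1.02 against hairpin 1 (SE 0.18, edgeR adjusted p = 0.015). The first call was lost without shControl 1 or 3 or sh2Cldn7 4 (edgeR adjusted p of 0.0566 to 0.0705), and the second without sh1Cldn7 2, 3 or 4 or sh2Cldn7 4 (0.0518 to 0.0649).

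Car12, a membrane carbonic anhydrase that handles exported acid, was at 397, 353, 465 and 336 CPM in shControl, 477, 397, 352 and 322 with sh1Cldn7, and 306, 282, 290.5 and 227 with sh2Cldn7. All 4 hairpin 2 libraries were below all 4 control libraries. It fell by 0.49 with hairpin 2 (SE 0.09, edgeR adjusted p = 0.017) and by 0.48 against hairpin 1 (SE 0.09, edgeR adjusted p = 0.023). The first call was lost without sh2Cldn7 1 or 4 (edgeR adjusted p of 0.0546 and 0.058), and the second without sh1Cldn7 1, 2 or 4 or sh2Cldn7 1 or 4 (0.0698 to 0.0899). Ddit4, an inhibitor of mTORC1 signalling, was at 247, 193, 234 and 138 CPM in shControl, 238, 178, 194 and 147 with sh1Cldn7, and 223, 141, 179.6 and 113 with sh2Cldn7. It was lower with hairpin 2 at all 4 numbers and fell by 0.32 (SE 0.07, edgeR adjusted p = 0.029), a call lost without shControl 1, 2 or 3, sh1Cldn7 2, or sh2Cldn7 2 or 4 (edgeR adjusted p of 0.0517 to 0.0999).

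The other 10 targets, Vegfa among them (-0.13 over both hairpins, SE 0.06, edgeR adjusted p = 0.31), were not called. Ndrg1, a stress-response gene, was at 53.8, 77.1, 112 and 53.7 CPM in shControl, 49.4, 62.0, 95.0 and 50.4 with sh1Cldn7, and 50.6, 63.0, 95.5 and 52.3 with sh2Cldn7. The difference over both hairpins was -0.18 (SE 0.05, edgeR adjusted p = 0.09). Car9, the carbonic anhydrase most used as a hypoxia marker, differed by -0.53 with hairpin 2 (SE 0.14, edgeR adjusted p = 0.053). For Hif1a the difference over both hairpins was -0.09 (SE 0.11, edgeR adjusted p = 0.73).

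**Figure D4:**
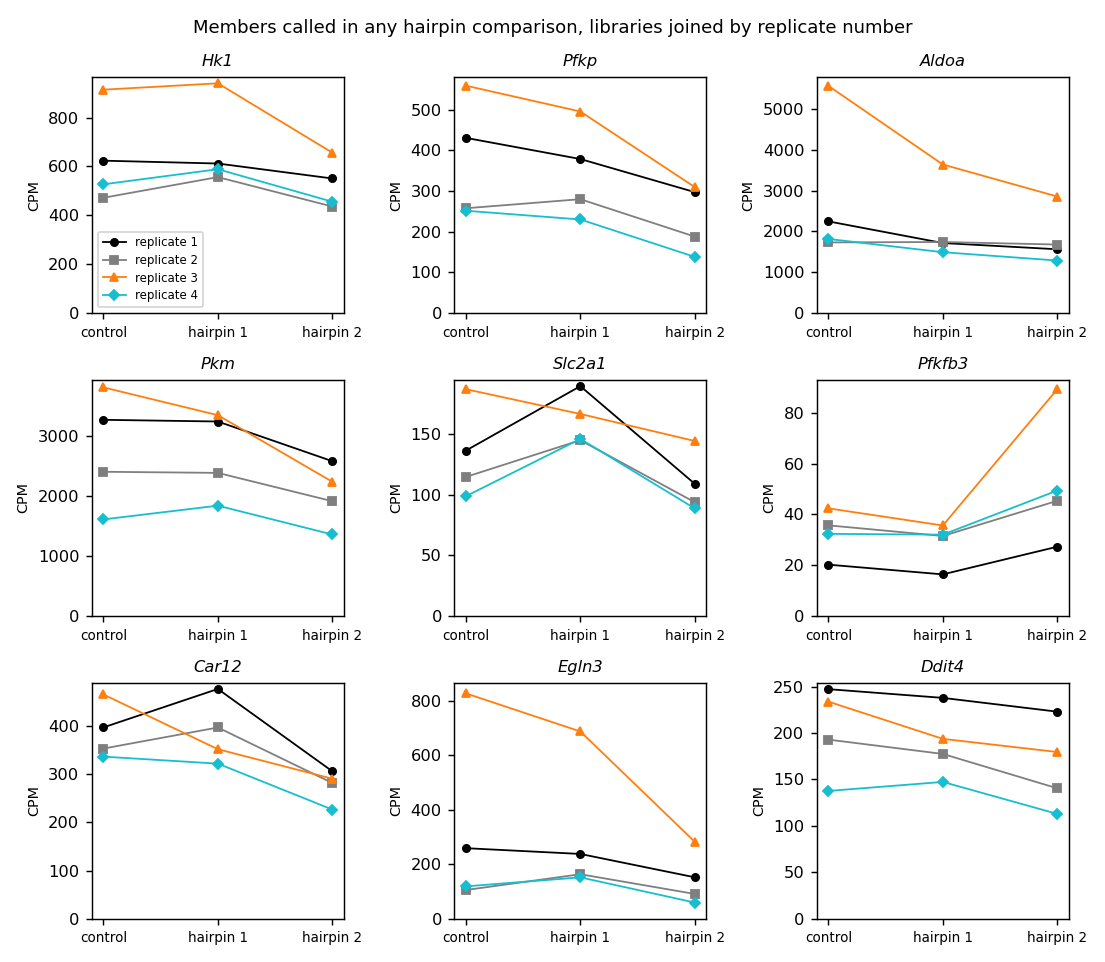
CPM from zero for the 9 members called in any hairpin comparison, with 1 line per replicate number joining control, hairpin 1 and hairpin 2. In 8 panels all 4 lines end lower than they start, and in the Pfkfb3 panel all 4 end higher. The orange line of replicate 3 begins highest in every panel but that of Ddit4.

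Between the hairpins 7 members were called, 6 lower and 1 higher with hairpin 2 (Hk1, Pfkp, Pkm, Slc2a1, Car12, Egln3 and Pfkfb3), where 3.44% of all genes were called, 1.87% lower and 1.57% higher. Both hairpins lowered Cldn7, by 2.07 with hairpin 1 and by 2.30 with hairpin 2. An edgeR F-test of whether a hairpin difference differed between replicates 1 and 2 and replicates 3 and 4 called 0 members and 0% of all genes, with 4 members (10.8%) at an unadjusted p under 0.05 against 5.60% of all genes. DESeq2 was not run for this interaction.

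By the median over members, hairpin differences were largest in replicate 3. The median over the 37 members of hairpin 2 minus control was -0.18, -0.11, -0.57 and -0.02 for replicates 1 to 4, and that of hairpin 1 minus control was -0.07, -0.02, -0.26 and 0.09. The control library of replicate 3 was the highest of the 12 for 21 of 37 members, and sh2Cldn7 replicate 4 was the lowest for 13. In replicate 3, 25 members ran in the order control, hairpin 1, hairpin 2 from high to low, against 15, 11 and 7 in replicates 1, 2 and 4. These medians, counts and orders are given for the members only, without the values over all genes. Whether they are particular to the members was not tested. Without the control library of replicate 3, hairpin 2 called 2 members and 2.01% of all genes, and without replicate 3 of all groups it called 3 (Pfkp, Pfkfb3 and Car12) and 2.65% of all genes, against 7 and 5.76% with all libraries.

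The HIF core motif was looked for near the start sites of the members. The letters searched were ACGTG and GCGTG on both strands (CACGT and CACGC on the other), in the 250 bases before each RefSeq start site of GRCm38.p6, and overlapping matches of both strands in CACGTG counted separately. Of 34 members with an entry, 30 (88.2%) held the motif before at least 1 start site, as did 41.5% of all 27025 genes with an entry. It was present in 13 of 16 enzymes and in 10 of 11 hypoxia targets with an entry. The sequences below belong to Pfkp and Egln3, which fell with hairpin 2, and to Pfkfb3, which rose, with matches in capitals. They lie at chr13:6648772-6649021, chr12:54203875-54204124 and chr2:11502091-11502340, all on the minus strand, and are printed 5′ to 3′.
Pfkp: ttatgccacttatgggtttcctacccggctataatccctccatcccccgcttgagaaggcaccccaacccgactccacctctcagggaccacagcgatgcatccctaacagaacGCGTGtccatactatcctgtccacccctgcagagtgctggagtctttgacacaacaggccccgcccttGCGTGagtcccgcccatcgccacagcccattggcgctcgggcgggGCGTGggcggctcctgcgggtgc
Egln3: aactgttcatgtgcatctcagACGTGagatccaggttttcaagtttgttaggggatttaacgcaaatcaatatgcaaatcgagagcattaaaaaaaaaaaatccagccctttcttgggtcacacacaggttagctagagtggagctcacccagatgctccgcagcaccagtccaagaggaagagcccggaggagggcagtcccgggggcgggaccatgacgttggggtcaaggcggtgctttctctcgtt
Pfkfb3: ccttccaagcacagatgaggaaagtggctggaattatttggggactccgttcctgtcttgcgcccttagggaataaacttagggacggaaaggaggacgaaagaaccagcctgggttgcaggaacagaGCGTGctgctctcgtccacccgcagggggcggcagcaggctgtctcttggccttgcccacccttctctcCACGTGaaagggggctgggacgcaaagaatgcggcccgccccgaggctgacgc
Pfkp held 3 matches, Egln3 held 1 and Pfkfb3 held 3 before the start site printed. Before its other start site (chr2:11553930-11554179, minus strand) Pfkfb3 held 1. Genes that differed in opposite directions held the core, as did 88.2% of the members with an entry. A match of 5 letters is a description and shows no binding.

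Other genes of the same pathways were described in lists of their own, with the shares of all genes called beside them. Of 38 tested further glycolysis genes, edgeR called 1 (2.63%, against 1.79% of all genes) over both hairpins, 1 (2.63%, against 0.728%) with hairpin 1 and 4 (10.5%, against 5.76%) with hairpin 2. G6pc3, a glucose-6-phosphatase gene, rose over both hairpins (0.36, SE 0.05, edgeR adjusted p = 0.010), by 0.43 with hairpin 1 and by 0.30 with hairpin 2. With hairpin 2 Ldhb, the other main lactate dehydrogenase subunit, fell by 0.41 (SE 0.10, edgeR adjusted p = 0.046), Ldhd, a D-lactate dehydrogenase gene, fell by 0.31 (SE 0.07, edgeR adjusted p = 0.036), and Slc2a4, the insulin-responsive transporter GLUT4, rose by 0.92 (SE 0.16, edgeR adjusted p = 0.012). The median of this list with hairpin 2 was -0.0041.

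Of 38 further hypoxia targets, 2 (5.26%, against 1.79% of all genes) were called over both hairpins, 0 with hairpin 1 (3 at an unadjusted p under 0.05 in edgeR) and 2 (5.26%, against 5.76%) with hairpin 2. Stc2, a secreted glycoprotein gene, fell by 0.40 over both hairpins (SE 0.06, edgeR adjusted p = 0.018) and by 0.72 with hairpin 2. Plod1, a collagen lysyl hydroxylase gene, fell by 0.37 over both hairpins (SE 0.06, edgeR adjusted p = 0.015) and by 0.49 with hairpin 2. Between the hairpins 2 of the list were called (5.26%, against 3.44%), Stc2 lower and the Notch effector gene Rbpj higher with hairpin 2. Of 16 tested HIF subunits and oxygen-sensing regulators, edgeR called 0 over both hairpins, with 3 (18.8%, against 17.2% of all genes) at an unadjusted p under 0.05. With hairpin 1 it called 2 (12.5%, against 0.728%): Epas1, the HIF-2 alpha gene, rose by 0.48 (SE 0.09, edgeR adjusted p = 0.046), and Vhl, whose product marks hydroxylated HIF alpha subunits for destruction, fell by 0.37 (SE 0.07, edgeR adjusted p = 0.047). With hairpin 2 it called 0 of the 16, with 1 (6.25%, against 22.6% of all genes) at an unadjusted p under 0.05. The calls of Epas1 and Vhl were not checked by leaving out libraries.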

How the data were processed

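The deposited table holds raw counts of reads per gene in 12 libraries, without normalization. Per the submitters' processing notes, FastQC 0.74, Trimmomatic 0.39, DESeq2 1.34.0 and mm10 were used; no aligner, counter or strand setting is given in the sources used here. Antisense neighbours can therefore share reads. Genes were kept by edgeR's filterByExpr (17025 of 25861), scaled by TMM and tested with edgeR 4.0.16 (glmQLFit, R 4.3.3), Benjamini-Hochberg adjusted over all genes tested, threshold 0.05. The planned model held the group only. The numbers in the titles pair libraries: deviations from group means correlated at 0.855 to 0.916 between same-numbered libraries, and all 12 lay closest to their own number, so values with the replicate block lead the text. The members, lists and models were chosen with earlier results of these data known. Named with full values were Gapdh, Hif1a, Vegfa, Ldha, every called member, the member of smallest p per comparison and the 3 largest replicate differences in each direction. DESeq2 1.42.0, other scalings, no filter, subsets of replicate numbers and leaving out each library were tried. The scripts were tested on simulated data. Promoter sequences are from RefSeq (GRCm38.p6).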

Additional observations from a re-analysis of the deposited data

Results flagged for a closer look

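In the groups of 4 libraries, 10 values of the members named with full values stood apart from the other 3 of their group by Dixon's criterion, and all 10 were replicate 3. They were Ldha in shControl (2792 CPM) and sh1Cldn7 (2002 CPM), Aldoa in shControl (5572 CPM) and sh1Cldn7 (3643 CPM), Egln3 in sh1Cldn7 (688 CPM), Hk1 in sh1Cldn7 (941 CPM), Slc16a3 in shControl (19.0 CPM), and Ankrd37 in shControl (6.20 CPM), sh1Cldn7 (5.26 CPM) and sh2Cldn7 (4.30 CPM). Each was above the rest of its group. In all, 57 groups were checked (19 members in 3 groups). Chance flags about 1 in 20 groups of independent values, but these genes share the same libraries. Slc16a3 and Ankrd37 were named for their large rise in replicates 3 and 4, which favours high values there. Other genes were not scanned.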

How the results depend on the processing

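No member passed the threshold without the replicate block under edgeR, DESeq2, another scaling, no filter or a missing library. With the replicate block, the pairing by number, edgeR called 1 member for both hairpins, 7 for hairpin 2 and 7 for hairpin 2 minus hairpin 1; DESeq2 with the block called 6, 13 and 10 (6.73%, 10.9% and 8.43% of all genes), DESeq2 size factors 1, 7 and 7 (1.83%, 5.85% and 3.41%), and no filter 2, 8 and 8 (1.62%, 4.29% and 2.65%). With the block, replicates 1 and 2 alone gave 3 calls between the hairpins (0.506% of all genes), replicates 3 and 4 alone 2 for hairpin 2 (1.98%), and the sets added after seeing the data gave 1 for hairpin 1, 3 for hairpin 2 and 6 between the hairpins (replicates 1, 2 and 4; 0.485%, 2.65% and 1.69%), and 1 for hairpin 2 and 2 between the hairpins (replicates 1, 2 and 3; 1.13% and 0.962%). Leaving out 1 library with the block gave 0 to 3 calls for both hairpins (0.230% to 3.26% of all genes). It gave 2 to 8 for hairpin 2 (2.01% to 6.12%) and 2 to 8 between the hairpins (0.970% to 3.95%). Without the block it gave 0 calls in each, with at most 0.00592% of all genes called.

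Some differences over both hairpins that were not called changed sign; the cause was not tested. Slc2a1 became 0.0092 with the block (0.0089 in DESeq2 with the block, 0.0088 with DESeq2 size factors and the block, 0.023 unfiltered, 0.050 in replicates 1 and 2, 0.10 in replicates 1, 2 and 4) and 0.00041 with upper-quartile scaling. Slc16a3 became 0.29 with the block (0.34 in DESeq2 with the block, 0.29 with DESeq2 size factors and the block, 0.31 unfiltered, 0.50 in replicates 1 and 2, 0.095 in replicates 3 and 4, 0.67 in replicates 1, 2 and 4, 0.11 in replicates 1, 2 and 3). P4ha1 became 0.031 in replicates 3 and 4 and 0.063 in replicates 1, 2 and 4, where Hif1a became 0.016 and Eno1 0.0022. Leaving out 1 library, with or without the block, gave ranges of -0.70 to 0.051 for Aldoa, -1.08 to 0.75 for Ankrd37, -0.995 to 0.41 for Egln3, -0.45 to 0.10 for Eno1, -0.50 to 0.50 for Gapdh, -0.22 to 0.028 for Hif1a, -0.21 to 0.14 for Hk1, -0.51 to 0.33 for Ldha, -0.32 to 0.082 for Ndrg1, -0.24 to 0.22 for P4ha1, -0.45 to 0.22 for Pgam1, -0.59 to 1.49 for Slc16a3, -0.14 to 0.19 for Slc2a1 and -0.25 to 0.10 for Vegfa. Of these, only Eno1, Hif1a, P4ha1 and Slc2a1 changed sign between libraries left out with the block; there Aldoa was -0.55 to -0.29, Ankrd37 -0.48 to -0.31, Egln3 -0.56 to -0.19, Gapdh -0.25 to -0.13 and Slc16a3 0.085 to 0.67.

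Per kilobase of the longest transcript, shares in shControl, sh1Cldn7 and sh2Cldn7 became 96.7%, 96.8% and 96.9% for Hk1, 3.30%, 3.17% and 3.14% for Hk2, 68.5%, 67.0% and 71.5% for Pfkl, 12.8%, 13.3% and 13.5% for Pfkm, 90.3%, 89.4% and 88.4% for Aldoa, and 9.68%, 10.6% and 11.6% for Aldoc. A fit of only the groups compared gave nothing new for both hairpins, which use all libraries. Counts of 24 for Ankrd37 and 30 for Slc16a3 in the lowest library limit their precision.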
